A study of Capra hircus with 3 samples.

Results

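Periportal hepatocytes, the liver cells nearest the incoming portal blood, were taken from single-cell libraries of goat liver by their transcripts. A barcode was a member when its counts of unique molecular identifiers (UMIs, 1 per captured transcript) met every part of the following rule. CPS1 and ABCB11 together had at least 4 UMIs, and HAL, UPP2, GLDC and KCND3 together had at least 4 and more than 2 times the sum of the pericentral genes LGR5, FMO1, SPEF2 and NKD1. STAB2, MSR1 and THEMIS, which mark endothelial cells, macrophages and T cells, were all at 0, and FASN and CYP7A1 were below 3 and below 2 UMIs. The rule found 1324 of 25591 barcodes, with 321 in Con, 480 in NASH and 523 in NASH-T.

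The libraries came from female goats aged 3 to 4 years, 5 per group. Con goats were healthy and were fed the LRDS diet. NASH goats had non-alcoholic steatohepatitis, an inflamed fatty liver, and NASH-T goats were described as tolerant of it. Both of these groups were fed the HRDS diet, so the diet and the liver state of either group cannot be told apart against Con. Tissue from the 5 animals of each group had been mixed before sequencing and gave 1 library, so no spread between animals could be measured and no difference between groups was tested.

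Blood flows through a liver lobule from the portal tract to the central vein, and hepatocytes along this path divide the work. Periportal hepatocytes are known for urea synthesis from ammonia, breakdown of amino acids such as histidine and glycine, and glucose production, whereas pericentral hepatocytes are known for glutamine synthesis, drug metabolism by cytochromes P450 and response to Wnt signals. In ruminants, glucose production from propionate and amino acids runs at all times because little glucose is absorbed from the gut.

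The deposited libraries held 25506238 (Con), 31195014 (NASH) and 29572158 (NASH-T) UMIs, with at least 500 per barcode. The members held 1845166, 2120309 and 3031147 of them, with a median per member of 5242, 3929 and 5208 UMIs and 2287, 1880.5 and 2190 genes. Gene levels below are CPM: the UMIs of a gene summed over the members of a library and scaled to a common total. Ratios between libraries carry an exact 95% interval in parentheses, which covers counting error only and says nothing of the spread between goats. Between 41 and 44 barcode sequences per library occurred in another library too, among them 1, 2 and 4 members. Scrublet, which looks for barcodes that hold 2 cells, called 9, 10 and 10 members; these were kept in the values below.

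Members made up 4.29% of all barcodes in Con (exact binomial interval 3.84 to 4.77), 5.50% in NASH (5.03 to 6.0) and 5.58% in NASH-T (5.12 to 6.06). Among hepatocyte barcodes (CPS1 and ABCB11 at least 4, the 3 lineage genes at 0) the shares were 12.8% (11.5 to 14.1), 13.0% (11.9 to 14.1) and 19.3% (17.8 to 20.8). With the limits on FASN and CYP7A1 NASH-T stood above the other libraries on the hepatocyte scale, while on the scale of all barcodes NASH and NASH-T lay within each other's counting error. These limits, on the fatty acid synthase FASN and on CYP7A1, the first enzyme of bile acid synthesis, weighed unequally on the libraries. They removed 16 of 337 otherwise qualifying barcodes in Con (4.75%), 526 of 1006 in NASH (52.3%) and 41 of 564 in NASH-T (7.27%). FASN alone was at or above its limit in 10, 498 and 40 barcodes, so the NASH members are the low-FASN part of that library's periportal barcodes. Without the limits the NASH share of all barcodes was 11.5%, and the shares of hepatocyte barcodes were 13.4%, 27.3% and 20.8%, so that NASH and not NASH-T stood highest. The removed NASH barcodes had a median of 5322 UMIs, above the 3929 of the NASH members, and depth itself helps a barcode to reach a UMI limit.

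**Figure D1:**
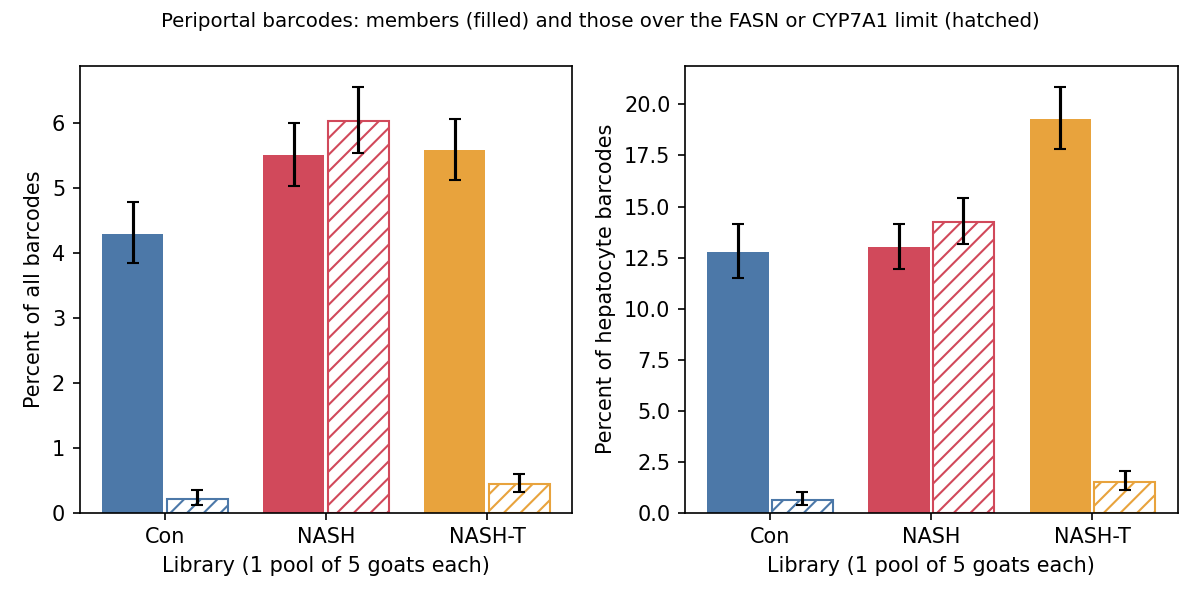
Percent of all barcodes (left) and of hepatocyte barcodes (right) in each library that were members (filled bars) or met the zonal rule but were over the FASN or CYP7A1 limit (hatched bars), with exact 95% binomial intervals of counting error. The hatched bar stands out in NASH, where 526 barcodes were over a limit against 16 in Con and 41 in NASH-T.

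The 4 genes that chose the members contributed unequally. UPP2, a uridine phosphorylase, gave 50.6%, 47.8% and 35.1% of the summed score in Con, NASH and NASH-T. GLDC, the glycine-cleaving decarboxylase, gave 24.1%, 24.8% and 30.1%, and KCND3, a potassium channel subunit, gave 18.0%, 22% and 21.1%. HAL, which removes ammonia from histidine, gave 7.27%, 5.36% and 13.7%. As a description of the chosen cells, HAL stood at 105, 107 and 221 CPM, UPP2 at 732, 955 and 566 CPM, GLDC at 348, 496 and 486 CPM, and KCND3 at 261, 439 and 340 CPM. The NASH-T members thus leaned more on HAL and less on UPP2 than the members of the other libraries. CPS1, the entry enzyme of the urea cycle, stood at 5893, 5584 and 7442 CPM and ABCB11, the bile salt export pump, at 1506, 1842 and 1473 CPM. Thinned to 2000 UMIs each, with shallower barcodes left out, 15.4%, 15.8% and 28.7% of 312, 438 and 506 members had a HAL UMI. Of 1021, 755 and 1408 equally thinned non-hepatocyte barcodes, 0.0979%, 0.132% and 0.213% had one. The rule chose the members partly on HAL, so this contrast describes the choice and is no test. Non-hepatocyte barcodes here had STAB2 or MSR1 at 3 or more or THEMIS at 2 or more, with CPS1 and ABCB11 below 4 together. Over all such barcodes the median depth before thinning was 1868, 1606 and 1893 UMIs, below the thinning depth.

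A score resting on 1 gene alone was found in 12.1%, 5.21% and 8.41% of members, and all 4 genes had a UMI in 10.9%, 12.7% and 20.5%. The median score was 7, 7 and 8 UMIs, with a highest value of 40, 41 and 55. Just outside the threshold, 55, 64 and 79 barcodes had a score of 3, and just inside it 63, 71 and 83 had a score of 4. In Con, ASS1, the urea cycle enzyme after OTC, stood at 379 CPM at score 3 and 398 CPM at score 4. In NASH its level was 326 and 373 CPM, and in NASH-T 248 and 269 CPM. Other genes differed more across the threshold, with OTC in NASH at 48.9 and 111 CPM, ARG1 in NASH-T at 561 and 741 CPM and ALB in NASH-T at 7585 and 5579 CPM.

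The label was set against zonation genes of other mammals that the rule did not use. The reference was the pericentral barcodes of the same library, found with the mirrored rule (the 4 pericentral genes at least 4 and more than 2 times the periportal sum), which numbered 1201, 722 and 1019. These values describe the chosen cells and are no test, since zones were chosen on counts of the same cells. Of 22 periportal genes with at least 50 UMIs in every library, 7 were at least 1.5-fold higher in the members in all 3 libraries and 0 were lower. Across all 7495 genes measured, 2.11% were higher and 2.32% lower by this measure. Of 18 pericentral genes, 0 were higher and 10 were lower in all 3 libraries. GLUL and OAT, the classic pericentral pair, were not found in the matrices under these symbols. The markers thus followed the label, with shallow steps for several classic periportal genes.

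**Figure D2:**
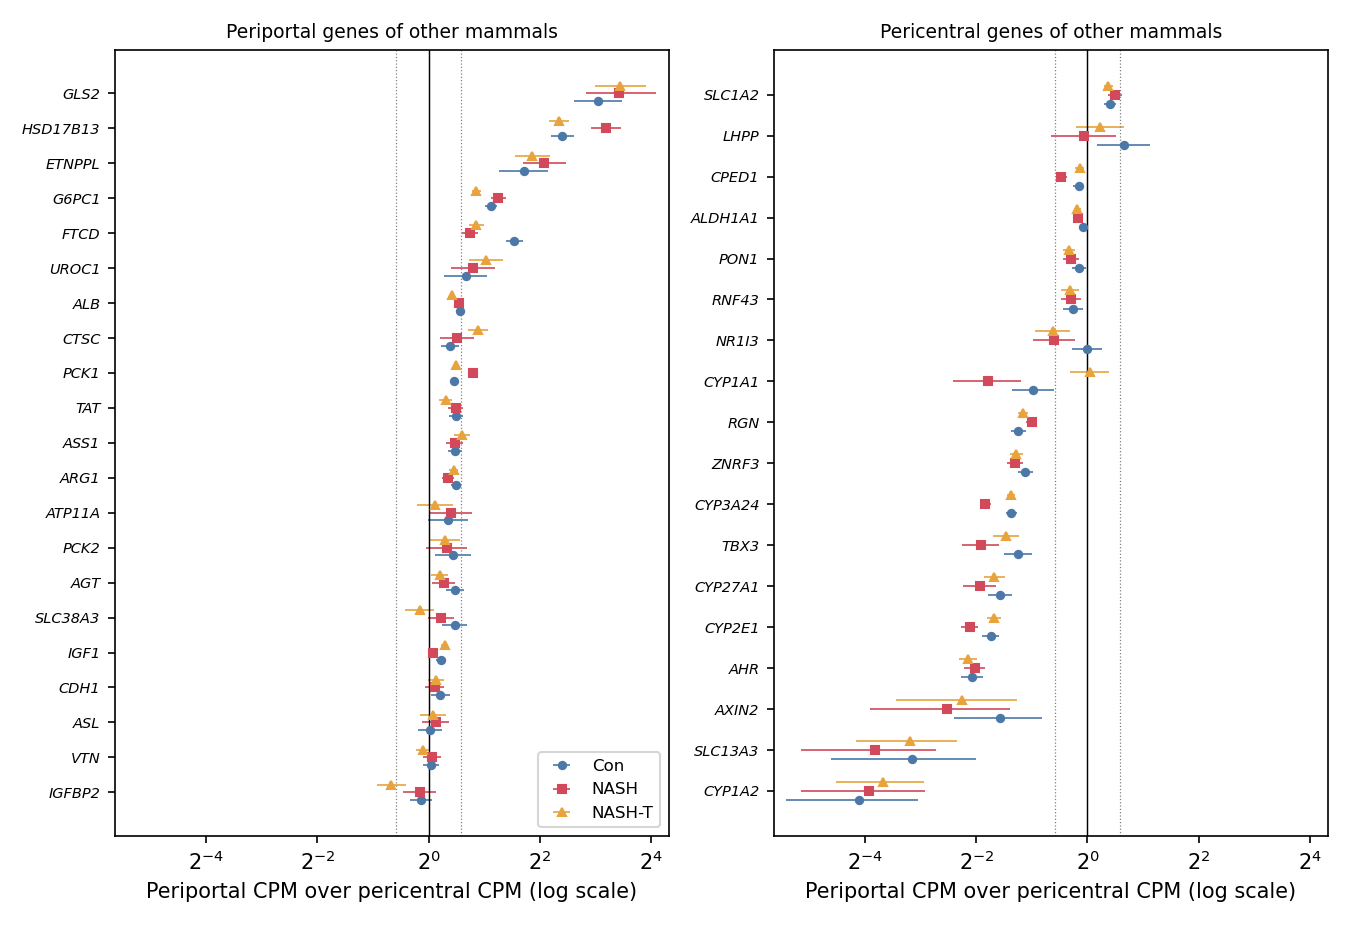
Ratio of CPM in periportal members to CPM in pericentral barcodes within each library (log axis) for measured genes of the 2 zonation lists, with exact 95% intervals of counting error; dotted lines mark 1.5-fold. GLS2, HSD17B13 and ETNPPL lie far to the right in all 3 libraries, CYP2E1, CYP1A2 and AHR far to the left, and SLC1A2 lies on the periportal side although it is pericentral in other mammals.

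Among the periportal genes, GLS2, the liver glutaminase that releases ammonia from glutamine, had the steepest gradient. It stood at 87.3, 89.1 and 101 CPM in the members of Con, NASH and NASH-T against 10.6, 8.25 and 9.32 CPM in pericentral barcodes, ratios of 8.27 (6.17 to 11.2), 10.8 (7.10 to 17.1) and 10.9 (8.01 to 15.0). HSD17B13, a lipid droplet enzyme, had ratios of 5.31, 9.13 and 5.09, and ETNPPL, which breaks down phosphoethanolamine, 3.27, 4.23 and 3.66. G6PC1, the last enzyme of glucose release, had ratios of 2.18, 2.39 and 1.82. PCK1, the committing enzyme of glucose production, had ratios of only 1.38, 1.75 and 1.42. Of 18 measured genes of glucose production and propionate use, 2 were at least 1.5-fold higher in the members in all 3 libraries, G6PC1 among them, and 0 were lower. The median ratios of that list were 1.03, 1.09 and 1.04.

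On the pericentral side, CYP2E1, a cytochrome P450 for ethanol and small solvents, stood at 212, 177 and 186 CPM in the members against 712, 770 and 596 CPM in pericentral barcodes. CYP1A2, another cytochrome P450, stood at 3.79, 3.77 and 4.95 CPM against 65.6, 57.4 and 63.4 CPM. The Wnt-responsive AXIN2 had ratios of 0.337, 0.172 and 0.208, and ZNRF3, a Wnt feedback ligase, 0.461, 0.403 and 0.411. SLC1A2, a glutamate transporter placed around the central vein in other mammals, went the other way with ratios of 1.33 (1.24 to 1.42), 1.41 (1.30 to 1.54) and 1.30 (1.22 to 1.37).

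Ammonia handling was graded unevenly within the urea cycle list. Of its 10 measured genes other than CPS1, which the rule used, only SLC25A15 was higher and only SLC25A12 lower by 1.5-fold in all 3 libraries. SLC25A15, the ornithine carrier of mitochondria, stood at 80.2, 80.2 and 89.4 CPM in the members against 38.9, 33.7 and 42.2 CPM in pericentral barcodes. SLC25A12, an aspartate-glutamate carrier, stood at 12.5, 17.9 and 17.8 CPM against 50.4, 94.4 and 47.9 CPM. The enzymes showed shallow steps. ASS1 had zonal ratios of 1.39, 1.39 and 1.52, ARG1, which releases urea, 1.41, 1.28 and 1.37, OTC, which makes citrulline, 1.36, 1.22 and 1.07, and ASL, which splits argininosuccinate, 1.02, 1.09 and 1.06.

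The histidine pathway downstream of HAL leaned periportal. UROC1, AMDHD1 and FTCD, which take urocanate onward to glutamate, were each at least 1.5-fold higher in the members in all 3 libraries, out of 9 measured genes of the histidine, glycine and serine list. AMDHD1 had ratios of 2.02, 1.85 and 2.19 and UROC1 of 1.59, 1.74 and 2.05. FTCD stood at 337, 381 and 304 CPM in the members and at 116, 227 and 167 CPM in pericentral barcodes, so its step was steeper in Con (2.92) than in NASH (1.68) or NASH-T (1.81). DMGDH, which oxidises dimethylglycine, was lower in the members with ratios of 0.609, 0.525 and 0.604. Of 33 measured genes for the breakdown of other amino acids, 4 were higher in the members in all 3 libraries (GLS2 and the 3 aminotransferase genes that follow) and 1, BHMT, was lower, with median ratios of 1.12, 0.895 and 0.984. GOT1, the cytosolic aspartate aminotransferase, had ratios of 4.05, 5.92 and 4.32, GPT2, an alanine aminotransferase, 2.67, 2.73 and 2.06, and AGXT2 3.40, 2.78 and 2.41.

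The 10 genes with the largest lowest ratio over the 3 libraries were CCDC148, ATP10B, GLS2, RORB, ASPG, FGFR2, MEP1B, ARHGEF38, TDRD9 and HSD17B13. CCDC148, a coiled-coil protein gene, had ratios of 17.6, 22.8 and 17.0. RORB, a nuclear receptor gene, stood at 256, 149 and 143 CPM in the members and at 32.6, 3.30 and 3.81 CPM in pericentral barcodes, so its ratio was 7.86 in Con and 45 and 37.5 in the HRDS libraries; without the limits on FASN and CYP7A1 the NASH to Con ratio of its level was 0.906 in place of 0.580. FGFR2, a receptor for fibroblast growth factors, had ratios of 8.01, 6.65 and 8.58. The 10 genes lowest in the members were NPR3, FMO2, CYP1A2, SLC13A3, TVP23A, CSAD, MAPK4, FAM81A, CCDC73 and AHR. NPR3, the clearance receptor of natriuretic peptides, stood at 7.05, 3.30 and 13.2 CPM in the members against 267, 246 and 301 CPM in pericentral barcodes. CSAD, the decarboxylase of taurine synthesis, had ratios of 0.158, 0.123 and 0.140.

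Between NASH and Con, the pathway lists that differed most in the members were those of cholesterol and fatty acid synthesis. HMGCS1, an early step of the sterol pathway, and ACACA, ACLY and ACSS2, which feed fatty acid synthesis, were between 3.72 and 6.59 times as high in NASH. Of 25 measured genes of cholesterol synthesis and LDL uptake, 17 were at least 1.5-fold higher and 1 (SCAP) lower, with a median log2 ratio of 0.97. Of 17 measured genes of fatty acid and triglyceride synthesis other than FASN, 10 were higher and 0 lower (median 0.83). Over all 7015 genes with at least 50 UMIs, 6.54% were higher and 9.86% lower by 1.5-fold, with a median log2 ratio of -0.06.

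HMGCS1 stood at 11.9 CPM in Con, 72.2 in NASH and 39.3 in NASH-T, and its NASH to Con ratio was 6.05 (3.86 to 9.94), or 10.9 in members thinned to 2000 UMIs each. FDPS, which makes farnesyl diphosphate, stood at 68.3, 284 and 133 CPM with a ratio of 4.16 (3.43 to 5.08). Con was lowest and NASH highest for both genes, with NASH-T between them and no overlap of the counting intervals. DHCR7, the last step to cholesterol, had 10, 58 and 34 UMIs and a ratio of 5.05 (2.56 to 11.1), or 3.23 without the limits on FASN and CYP7A1. SREBF2, which encodes the transcription factor that drives these genes, stood at 166, 186 and 186 CPM. SCAP, the gene of that factor's escort protein, had 29, 22 and 35 UMIs, with a ratio of 0.660 (0.361 to 1.19) whose interval includes 1.

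In fatty acid synthesis, SCD, which puts the first double bond into stearate, had 3 UMIs in Con, 101 in NASH and 40 in NASH-T, a NASH to Con ratio of 29.3 with a wide counting interval (9.74 to 144). The ratio was 68.2 with a score of at least 6 and 13.5 in thinned members. ACSS2, which makes acetyl-CoA from acetate, the main carbon source for lipid in ruminants, stood at 24.4, 161 and 67.3 CPM with a ratio of 6.59 (4.82 to 9.21). ACACA, acetyl-CoA carboxylase, stood at 207, 818 and 402 CPM with a ratio of 3.95 (3.53 to 4.42). The order Con, NASH-T, NASH held here too. ACLY, which makes acetyl-CoA from citrate, stood at 29.8, 111 and 52.5 CPM and ELOVL6, a fatty acid elongase, at 150, 356 and 253 CPM. ACACB, the carboxylase isoform that restrains fatty acid oxidation, went the other way at 226, 169 and 215 CPM, with a ratio of 0.749 (0.649 to 0.865), while its pericentral ratio was 1.22. FASN itself stood at 32.5, 214 and 74.9 CPM in the members, levels that the rule capped at 2 UMIs a barcode. In the NASH barcodes over a limit it stood at 831 CPM, while ACACA stood at 905 CPM there, against 818 CPM in the NASH members.

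**Figure D3:**
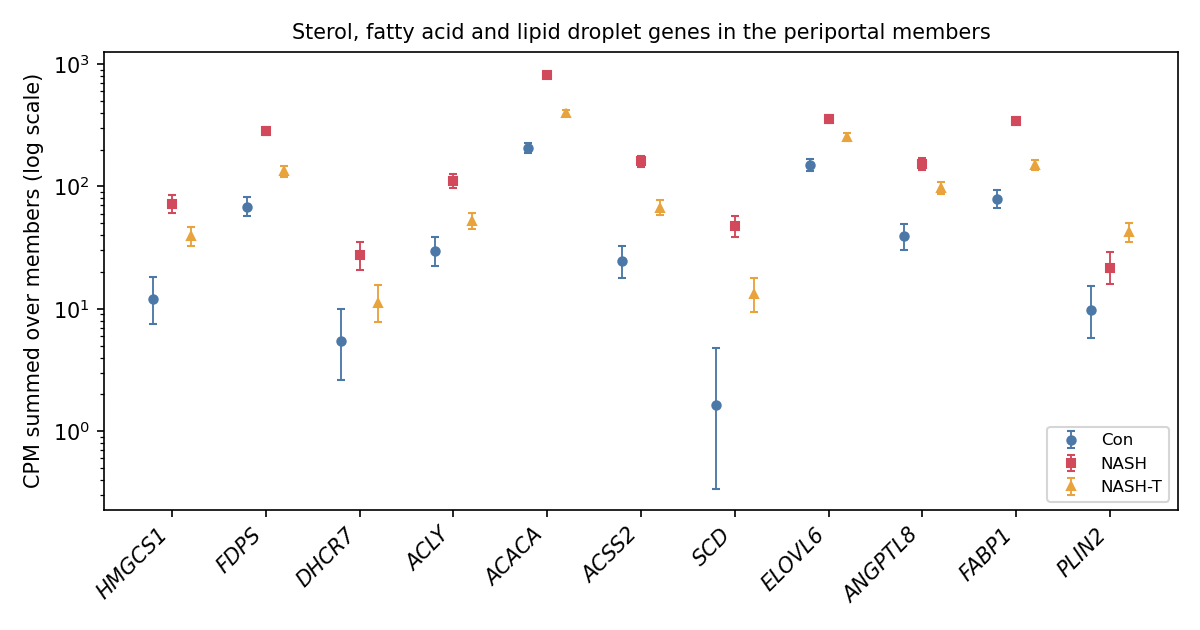
CPM summed over the periportal members of each library (log axis) for sterol, fatty acid and lipid droplet genes, with exact 95% Poisson intervals of counting error. For HMGCS1 to FABP1 NASH is highest and Con lowest, while PLIN2 is highest in NASH-T; levels of different genes are not to be compared, since they depend on transcript capture.

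The lipid lists were also summed within each member. Genes of the cholesterol list took a median of 0.158% of a member's UMIs in Con, 0.331% in NASH and 0.244% in NASH-T. The lower quartile of NASH was 0.247%, above the upper quartile of 0.225% in Con. For fatty acid and triglyceride synthesis the medians were 0.190%, 0.353% and 0.262%, and the lower quartile of NASH (0.258%) again lay above the upper quartile of Con (0.252%). Pericentral barcodes showed the same order in their summed cholesterol genes, at 1609, 4019 and 2742 CPM against 1720, 3472 and 2564 CPM in the members. Non-hepatocyte barcodes held 668, 683 and 623 CPM.

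**Figure D4:**
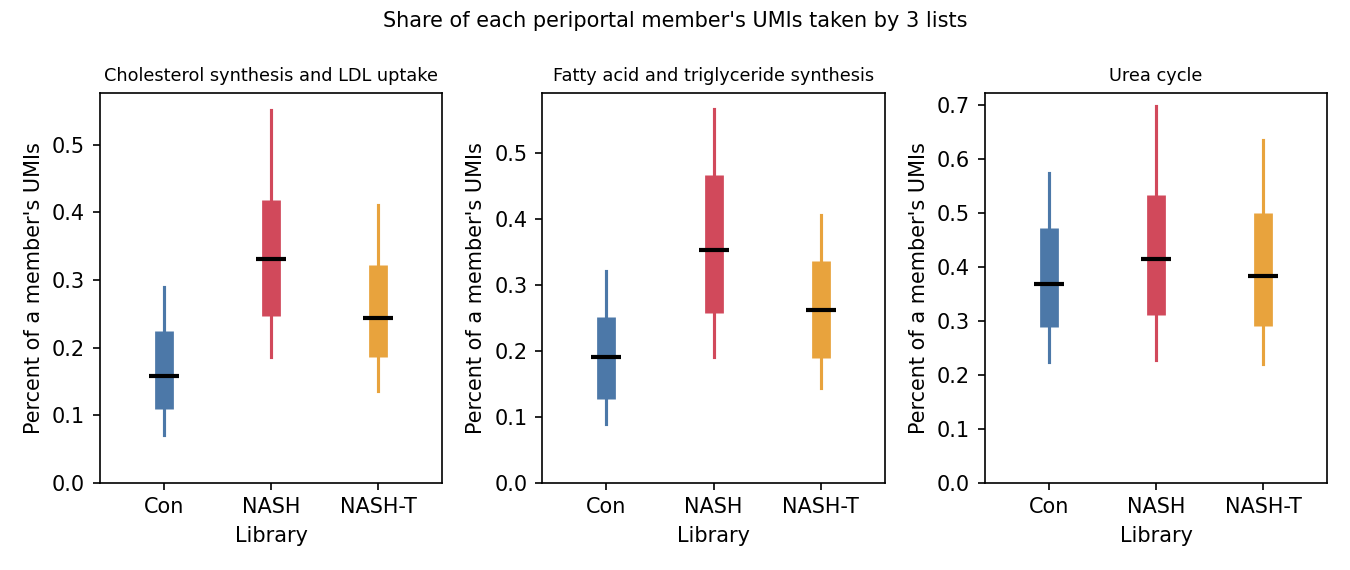
Percent of each member's UMIs taken by the genes of 3 lists (FASN and CPS1 left out), by library; the black mark is the median over members, the thick bar runs from the lower to the upper quartile and the thin line from the 10th to the 90th percentile. The thick bars of Con and NASH do not overlap for cholesterol or fatty acid synthesis, and all 3 overlap for the urea cycle.

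Lipid storage and transport genes had 3 of 16 higher and 2 lower in NASH, with a median log2 ratio of 0.01. FABP1, the fatty acid carrier of hepatocytes, stood at 79.1, 344 and 151 CPM, a ratio of 4.35 (3.64 to 5.23), and in non-hepatocyte barcodes it was at 48.1 CPM in Con and 213 CPM in NASH. ANGPTL8, a secreted inhibitor of triglyceride clearance, stood at 39.0, 152 and 97.3 CPM with a ratio of 3.89 (3.01 to 5.10). PLIN2, the coat protein of lipid droplets, stood at 9.76, 21.7 and 42.2 CPM with a ratio of 2.22 (1.26 to 4.08). PNPLA2, the lipase that opens lipid droplets, was lower at 241, 160 and 158 CPM, and PLIN5, which ties droplets to mitochondria, stood at 41.2, 27.4 and 33.7 CPM. Fatty acid oxidation had 1 of 24 genes higher (FGF21, a fasting hormone, at 11.9, 33.5 and 15.5 CPM) and 1 lower (ECI1, an isomerase of unsaturated fatty acids, at 52.6, 21.2 and 27.4 CPM).

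For the functions that name the zone, counts past 1.5-fold between NASH and Con are given beside the share over all genes. Over all 7015 genes measured, 6.54% were higher and 9.86% lower in NASH, with a median log2 ratio of -0.06. The counts of these short lists were not tested against those shares. Of 10 measured urea cycle genes 1 was higher (SLC38A4, an amino acid carrier, at 1422, 2172 and 1939 CPM) and 0 lower, with a median of -0.08. OTC stood at 97.0, 81.1 and 67.3 CPM and ARG1 at 811, 675 and 761 CPM. Of 18 genes of glucose production and propionate use 0 were higher and 1 lower (MMAA, for the cobalamin step of propionate use, at 46.1, 29.2 and 31.3 CPM). Of 32 genes for the breakdown of other amino acids, 2 were higher and 4 lower. BHMT, which remethylates homocysteine with betaine, stood at 163, 50.9 and 221 CPM, a NASH to Con ratio of 0.312 (0.248 to 0.390). CTH and CBS, which carry homocysteine sulfur to cysteine, had ratios of 0.560 (0.393 to 0.793) and 0.580 (0.339 to 0.977). The pericentral BHMT ratio was 0.365.

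**Figure D5:**
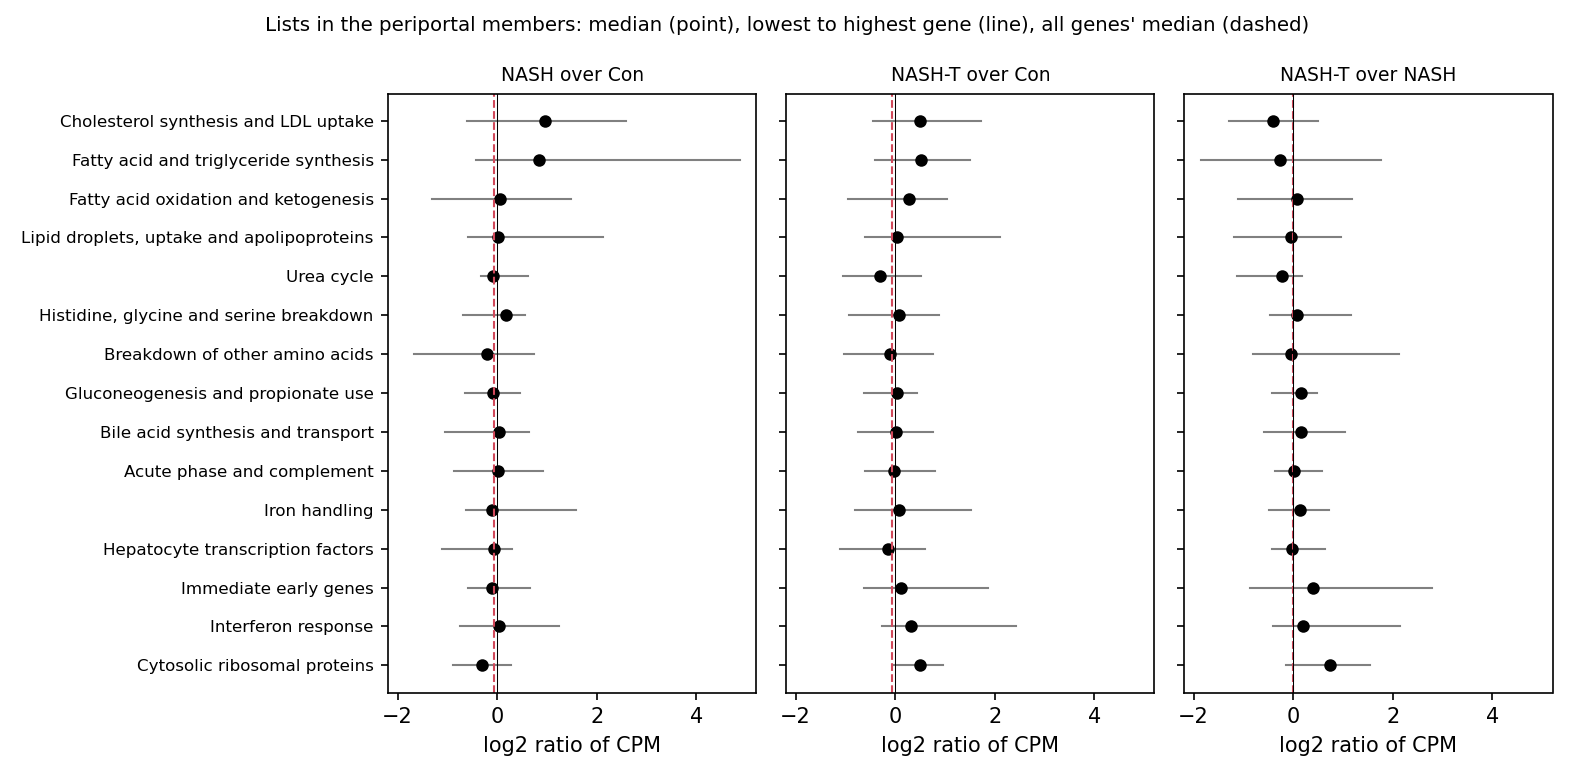
Log2 ratio of CPM between libraries for lists of genes in the members: the point is the median over measured genes, the line runs from the lowest to the highest gene and the dashed line is the median of all measured genes. The medians of cholesterol and fatty acid synthesis lie to the right of the other plotted lists in NASH over Con (0.97 and 0.83) and left of 0 in NASH-T over NASH (-0.40 and -0.27), where ribosomal proteins lie at 0.74.

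Other genes were named for the size of their NASH to Con ratio. SGCD, a sarcoglycan gene, had 13 UMIs in Con, 353 in NASH and 248 in NASH-T, a ratio of 23.6 (13.6 to 44.8), and in members thinned to 2000 UMIs each it was 110 on fewer counts. RIMS2, known from synaptic vesicle release, stood at 49.3, 392 and 157 CPM with a ratio of 7.96 (6.40 to 9.99). KITLG, the ligand of the KIT receptor, had 3, 68 and 24 UMIs, a ratio of 19.7 (6.47 to 98.0), or 11.4 in thinned members. These genes were higher in NASH in pericentral barcodes too, where the ratios were 15.3, 13.4 and 5.61. SERPINA6, which encodes the cortisol-binding globulin of plasma, stood at 14.6, 73.6 and 31.0 CPM, TRHDE, a peptidase gene, at 9.21, 51.4 and 39.9 CPM, and USH1C, a scaffold protein gene, at 8.67, 45.3 and 46.2 CPM. Among the genes lowest in NASH, FBN2, a fibrillin gene, stood at 71.0, 8.96 and 185 CPM, a ratio of 0.126 (0.0736 to 0.205) that was 0.235 without the limits on FASN and CYP7A1. MIOX, which degrades inositol, had 60, 10 and 27 UMIs, a ratio of 0.145 (0.0662 to 0.286) that was 0.239 without those limits, and C11orf65 had 100, 23 and 31 UMIs, a ratio of 0.200 (0.121 to 0.317). TMEM178A stood at 99.7, 22.2 and 70.3 CPM, CYP2A13 at 160, 50.5 and 89.7 CPM and ANPEP, a membrane aminopeptidase, at 27.6, 8.49 and 32.3 CPM. KPNA5, CSTPP1 and CCDC150 completed the 10, with ratios of 0.290, 0.296 and 0.336; CSTPP1 had a ratio of 0.534 without those limits and 0.119 in thinned members, where CCDC150 had 0.583.

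HAMP and the fibrinogen chains gave some of the better counted differences. HAMP, which encodes the iron hormone hepcidin, stood at 256, 768 and 605 CPM in the members, a NASH to Con ratio of 3.00 (2.71 to 3.33). In pericentral barcodes it stood at 227, 305 and 347 CPM, so its zonal ratio was 1.12 in Con, 2.52 in NASH and 1.74 in NASH-T. Of the 12 measured iron genes 3 were higher (HAMP, HJV and ID1) and 2 lower (TFRC and SMAD6), with a median of -0.10. In Con and NASH, HJV rested on only 23 and 40 UMIs, ID1 on 26 and 52 and SMAD6 on 69 and 52. Over all genes measured, 6.54% were higher and 9.86% lower in NASH than in Con. The fibrinogen chains FGA, FGB and FGG had ratios of 1.88 (1.78 to 1.98), 1.71 (1.64 to 1.79) and 1.73 (1.66 to 1.80), while the acute phase and complement list as a whole had 4 of 29 higher, 2 lower and a median of 0.02. Among receptors, EGFR stood at 714, 1303 and 1122 CPM and LEPR, the leptin receptor, at 1439, 655 and 1036 CPM, with NASH to Con ratios of 1.83 (1.71 to 1.95) and 0.455 (0.426 to 0.486). Among hepatocyte transcription factors 0 of 21 were higher and 5 lower, among them NR1I3, KLF9 and TBX3.

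NASH-T lay between the other libraries for the lipid groups. Against Con, 9 of 24 cholesterol genes were at least 1.5-fold higher and 0 lower (median log2 ratio 0.50), and 9 of 18 fatty acid and triglyceride genes were higher and 0 lower (0.53). Over all 7514 genes measured, 6.23% were higher and 8.32% lower (median -0.07). HMGCS1 had a NASH-T to Con ratio of 3.29 (2.08 to 5.45), or 5.09 in thinned members, ACSS2 2.76 (1.99 to 3.90) and ACACA 1.94 (1.73 to 2.19). Both comparisons against Con share the Con library.

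Among genes of fat burning, PDK4 and HADHA had their highest level in NASH-T, whereas FGF21 was highest in NASH and ECI1 in Con. Of 24 measured genes of fatty acid oxidation and ketogenesis 3 were higher than in Con and 1 (ECI1) lower, with a median of 0.29. PDK4, which spares glucose by closing pyruvate dehydrogenase, stood at 280, 257 and 579 CPM in Con, NASH and NASH-T, a NASH-T to Con ratio of 2.07 (1.87 to 2.28). HADHA, of the mitochondrial oxidation complex, stood at 61.8, 77.3 and 108 CPM with a ratio of 1.75 (1.41 to 2.18). Outside that list, the lipid droplet gene PLIN2 also had its highest level in NASH-T, a ratio of 4.33 (2.63 to 7.54) to Con.

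Gene by gene, the urea cycle list leaned lower in NASH-T, with 0 of 10 measured genes higher and 4 lower than in Con and a median of -0.31. The summed list did not, at 3808, 4464 and 4097 CPM in Con, NASH and NASH-T. As a share of a member's UMIs its medians were 0.369%, 0.415% and 0.384%. The carrier SLC38A4, higher in both HRDS libraries than in Con, makes up much of that sum. ASS1 stood at 379, 304 and 252 CPM, a NASH-T to Con ratio of 0.664 (0.599 to 0.737). ASL stood at 127, 114 and 82.8 CPM (0.650, interval 0.542 to 0.780). SLC38A3, a glutamine carrier listed as periportal in other mammals, stood at 124, 132 and 60.0 CPM (0.484, interval 0.396 to 0.590). NAGS, which makes the activator of CPS1, had 29, 27 and 27 UMIs, a ratio of 0.567 (0.323 to 0.992). CPS1 itself, a rule gene, was highest in NASH-T, and the pericentral ratios of ASS1 and ASL were 0.611 and 0.631, so their levels were lower in both zones. In the histidine list AMDHD1 and PIPOX were higher and DLD lower, and AMDHD1 stood at 50.4, 62.3 and 92.4 CPM. GOT1 stood at 163, 178 and 274 CPM, a NASH-T to Con ratio of 1.68 (1.47 to 1.93).

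Some of the largest NASH-T to Con ratios were seen in both zones. TRPC6, a cation channel gene, had 60, 29 and 546 UMIs, a ratio of 5.54 (4.24 to 7.36). As a mean of each member's CPM the ratio was 8.54, and pericentral barcodes had a ratio of 10.3. Non-hepatocyte barcodes held 157, 275 and 177 CPM of TRPC6, against 180 CPM in the NASH-T members. SGCD had a ratio of 11.6 (6.67 to 22.1), or 49.9 in thinned members, and USH1C of 5.33 (3.17 to 9.58), or 8.17 in them. TRHDE had a ratio of 4.33 (2.6 to 7.68), which fell to 2.54 in thinned members, and RIMS2 of 3.18 (2.54 to 4.03). SCN3A, a sodium channel gene, stood at 16.8, 9.90 and 52.8 CPM and was also higher in the members than in pericentral barcodes in each library (4.2, 4.29 and 3.70). FREM3 stood at 36.9, 85.8 and 125 CPM. TAF10 had 13, 28 and 70 UMIs, a ratio of 3.28 that was 2.11 in thinned members and 5.51 with a score of at least 6. At the other end PTPRD, a receptor phosphatase gene, had 105, 45 and 7 UMIs, a ratio of 0.0406 (0.0159 to 0.0866). SHROOM3, which shapes epithelial cells, stood at 438, 206 and 144 CPM in the members, a ratio of 0.328 (0.291 to 0.369), and kept a periportal gradient of 3.92, 8.80 and 5.35. FBN3, C11orf65, CCDC150, MIOX, CNNM3, TACC2 and IGFBP2 had ratios between 0.162 and 0.386. IGFBP2, a binding protein of insulin-like growth factors, stood at 144, 74.0 and 55.4 CPM.

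Between NASH-T and NASH, which shared the HRDS diet, a minority of the sterol genes were at least 1.5-fold lower in NASH-T. Of 25 measured cholesterol genes 0 were higher and 7 lower in NASH-T (median -0.40), and of 19 genes of fatty acid and triglyceride synthesis 1 was higher and 4 lower (-0.27). Over all 7560 genes measured 7.0% were higher and 5.37% lower (median -0.01). SCD had a NASH-T to NASH ratio of 0.277 (0.187 to 0.403), ACSS2 of 0.418 (0.350 to 0.499), FDPS of 0.467 (0.411 to 0.531) and ACACA of 0.492 (0.457 to 0.530). These ratios compare NASH-T members with a NASH group from which 498 barcodes of high FASN had been taken out. With the limits lifted the cholesterol median was -0.44 and the fatty acid median -0.37.

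Ribosomal protein genes were at least 1.5-fold higher in NASH-T than in NASH for 21 of 30 measured genes and lower for 0 (median 0.74). They summed to 1588, 1284 and 2178 CPM in the members of Con, NASH and NASH-T, and to 1954, 1854 and 2361 CPM in non-hepatocyte barcodes, so the order was the same outside the hepatocytes. The immediate early genes, which respond within minutes to stimuli including tissue handling, had 5 of 12 higher and 1 lower (0.39). FOS stood at 10.8, 5.66 and 39.3 CPM and DUSP1 at 49.3, 35.4 and 146 CPM, with NASH-T to NASH ratios of 6.94 (3.83 to 13.8) and 4.14 (3.24 to 5.36). In non-hepatocyte barcodes the list summed to 554, 685 and 1264 CPM. The part of handling in these differences was not tested. BHMT and CTH were higher in NASH-T than in NASH, with ratios of 4.35 (3.54 to 5.38) and 2.07 (1.52 to 2.86). In NASH-T, BHMT lay above its Con level by less than 1.5-fold, and CTH lay nearer to its own Con level.

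Among the largest ratios, PAPPA, a protease of IGF-binding proteins, had 33, 1 and 89 UMIs, a NASH-T to NASH ratio of 62.3 with an interval from 10.9 to 2486 that rests on the 1 NASH UMI. It ranged from 7.79 in thinned members to 98.8 as a mean of each member's CPM, and PAPPA was also the 1 gene past 1.5-fold higher in the growth hormone and IGF list. FBN2 had a ratio of 20.7 (13.1 to 34.6), or 11.7 without the limits on FASN and CYP7A1 and 32.2 with a score of at least 6, and TRPC6 of 13.2 (9.07 to 19.9), or 23.8 without them. The ratio of ROS1, a receptor kinase gene, was 5.40 (3.41 to 8.95), or 2.91 in thinned members, and that of SCN3A 5.33 (3.37 to 8.85). TIAM1, an activator of the small GTPase Rac, had 19, 77 and 18 UMIs, a ratio of 0.164 (0.0921 to 0.276). SLC5A1, a sodium-glucose carrier, had 29, 87 and 27 UMIs, a ratio of 0.217 (0.135 to 0.338) that was 0.363 in thinned members, and stood at 15.7, 41.0 and 8.91 CPM in the members against 2.72, 1.32 and 0.761 CPM in pericentral barcodes. KITLG had a ratio of 0.247 (0.148 to 0.398) and PTPRR, a tyrosine phosphatase gene, stood at 134, 488 and 137 CPM, a ratio of 0.280 (0.249 to 0.314). PTPRR was thus near the same level in Con and NASH-T and high in NASH alone of the 3 libraries.

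Markers of other cells were summed in the members. The 9 endothelial markers other than STAB2 summed to 40.1, 54.2 and 98.3 CPM in Con, NASH and NASH-T, against 1106, 1728 and 1970 CPM in non-hepatocyte barcodes. In NASH-T, 43 of the 89 PTPRB UMIs and 23 of the 34 VWF UMIs came from 1 barcode each. The 8 T and NK cell markers summed to 16.3, 28.3 and 17.2 CPM with CD3D at 0, and the 8 B and plasma cell markers to 43.9, 19.8 and 48.8 CPM with CD79A, CD79B and TNFRSF17 at 0. The 11 stellate and fibroblast markers summed to 50.9, 124 and 61.0 CPM with NGFR at 0, and in NASH RELN gave 62.7 CPM, of which 38 of 133 UMIs lay in 1 barcode. The 7 dividing cell markers summed to 8.67, 5.19 and 6.93 CPM, and the 8 mast cell and neutrophil markers to 13.5, 26.4 and 14.8 CPM. Of 3 red cell markers SLC4A1 and ALAS2 were at 0, as were CSF3R and MS4A2 of the mast cell and neutrophil list. Mitochondrially encoded genes took 0.0708%, 0.0644% and 0.0740% of the members' UMIs. The part of such carried-over RNA in the gene differences above was not tested.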

How the data were processed

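Single-cell RNA libraries of pooled goat liver were deposited as matrices of UMI counts per gene and barcode, made by the authors with Cell Ranger 7.0.0, per the submitters' processing notes. The genome build and the annotation were not given in the sources used here. Every matrix listed 27271 genes, of which 9958 carried an identifier in place of a symbol and were tested but not named. The counts were used as deposited, with no row or barcode removed beyond the member rule. Raw counts were summed over members, and no batch or depth correction was applied.

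Levels are CPM with exact Poisson intervals, shares have exact binomial (Clopper-Pearson) intervals, and ratios between libraries have exact conditional binomial intervals, all at 95%. Since reads of 1 pooled library per group are the only source, no p-value was computed. A gene counted as measured when its UMIs in the 2 libraries compared summed to 50 or more, and as higher or lower past 1.5-fold. A group at 0 would have been set to a floor of 3 counts. The 15 rule genes were left out of list counts and medians.

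Named genes were the 10 largest ratios in each direction against Con and the 5 largest for NASH-T against NASH, among genes at least 2-fold apart, with a UMI in at least 10% of members of the higher library and a level there no lower than in non-hepatocyte barcodes. Up to 4 genes per list with the largest ratios were added, and the 10 steepest zonal genes in each direction. ARG1, OTC, SLC25A15, PCK1, G6PC1, GPT2, AGXT2, AXIN2, ZNRF3, CYP2E1, SLC1A2, SREBF2, SCAP, ELOVL6 and ACACB were named outside this rule after their values were seen. MRC1, which was in none of the gene or marker lists, was also named outside it. The members, gene lists and tests were chosen with earlier results of these data known, and PTPRD, PAPPA, TRPC6, FBN2, NNAT, HAMP and FABP1 had been singled out in those results. Python 3.11.15 with numpy 2.4.6, scipy 1.17.1, pandas 2.3.3 and matplotlib 3.10.9 was used, and Scrublet in scanpy 1.11.5 (expected rate 0.06) marked doublets, which were removed in an alternative only. A few genes that entered the counts and medians are not reported here. The ratio and interval code was tested on simulated data. Other member thresholds, doublet removal, cell thinning, cell weighting, scalings and count minimums were tried.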

Additional observations from a re-analysis of the deposited data

Results flagged for a closer look

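In 14 cases a named gene was higher in one library than in another among the periportal members and lower among the pericentral barcodes of the same libraries, or the reverse, with both counting intervals excluding 1. With 1 library per group the difference between zones was not tested in any of them. How often opposite directions occurred over all genes was not counted, so the 14 cases have no background share to be read against. Between NASH-T and NASH there were 7 such cases. CYP2A13 had a periportal ratio of 1.78 against a pericentral 0.907, TVP23A 2.36 against 0.717 and AKR1D1, a reductase of bile acid synthesis, 1.16 against 0.877. HSD17B13 had 0.741 against 1.33, HAMP 0.788 against 1.14, ERBB3, a growth factor receptor, 0.774 against 1.22, and SLC38A4 0.893 against 1.04.

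Between NASH and Con, PCK1 had a periportal ratio of 1.11 against a pericentral 0.873. CYP3A24 had 0.774 against 1.07, CYP2E1 0.832 against 1.08 and ACACB 0.749 against 1.22. Between NASH-T and Con, TMEM178A had 0.705 against 1.14, FTCD 0.900 against 1.45 and FTH1, the heavy chain of ferritin, 1.29 against 0.909. For PCK1 the zonal step was thus larger in NASH than in Con, whereas for FTCD it was smaller in NASH-T than in Con. The comparisons against Con share the Con library.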

How the results depend on the processing

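No paired analysis was possible because each group is 1 library. The member shares moved with the rule. In Con, NASH and NASH-T they were 5.02%, 6.23% and 6.42% with a score of at least 3, and 2.83%, 3.84% and 3.90% with at least 6. They were 3.81%, 5.02% and 5.11% with more than 4 times the pericentral sum. On counts thinned to 3000 UMIs, with shallower barcodes left out, 201, 456 and 344 members remained. These were 6.53%, 12.2% and 9.86% of the deeper barcodes only, so they cannot be set beside the shares of all barcodes. Among them NASH stood above NASH-T, with the limits on FASN and CYP7A1 applied to the thinned counts. Without the FASN and CYP7A1 limits the NASH share was 11.5%, and of hepatocyte barcodes, an alternative chosen after seeing the data, 27.3% in NASH and 20.8% in NASH-T. Genes past 1.5-fold numbered 459 higher and 692 lower for NASH over Con, 468 and 625 for NASH-T over Con, and 529 and 406 for NASH-T over NASH. With at least 200 UMIs per gene these counts were 180 and 189, 186 and 159, and 164 and 116. With 1 UMI in each library sufficing they were 1762 and 2693, 1746 and 2812, and 2009 and 1661. In members thinned to 2000 UMIs, 431 genes were lower for NASH over Con and 362 for NASH-T over Con. Of 756 list medians under alternatives, 753 stayed between the median lower and the median upper counting bound of their genes. The nucleoside list for NASH-T over Con moved to -0.23 with 1 UMI sufficing, and the growth hormone and IGF list for NASH-T over NASH to -0.22 without the limits and to -0.16 as a mean of each cell's CPM. Of the gene ratios, 5892 stayed inside their counting interval, 191 left it and 5 reversed. Those were MMAB for NASH-T over Con (1.16), MYC (1.42) and FMO2 (0.712) for NASH over Con and SLC5A1 for NASH-T over Con (1.34), all in thinned members, and NPR3 for NASH over Con without the limits (1.13). The cause was not tested. Thinning gave 83 of the ratios that moved by over 1.5 times, 73 of them on fewer than 50 UMIs.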

Other observations

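CD163, the haemoglobin scavenger receptor by which liver macrophages are usually recognised, was found in most members. It had a UMI in 290 of 321 members in Con, 413 of 480 in NASH and 482 of 523 in NASH-T, at 793, 681 and 1054 CPM. Pericentral barcodes held 834, 795 and 1292 CPM, and non-hepatocyte barcodes, which include those with 3 or more MSR1 UMIs, held 719, 346 and 398 CPM. Other macrophage genes were far lower in the members than in non-hepatocyte barcodes. C1QA, a complement chain gene, had 59, 71 and 125 UMIs in 48, 62 and 101 members (32.0, 33.5 and 41.2 CPM), C1QB had 30, 52 and 79 UMIs and TIMD4 19, 47 and 63. VSIG4, a complement receptor of resident macrophages, stood at 1.08, 3.77 and 1.65 CPM against 511, 390 and 386 CPM in non-hepatocyte barcodes, MRC1, the mannose receptor, at 5.96, 7.07 and 9.90 CPM against 766, 723 and 1002 CPM, and CSF1R had 0, 4 and 2 UMIs. The 9 macrophage markers summed to 860, 774 and 1158 CPM in the members, most of it CD163.

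The 10 bile duct markers summed to 686, 743 and 635 CPM in the members, above the 179, 133 and 116 CPM of non-hepatocyte barcodes. Those barcodes were picked on endothelial, macrophage and T cell genes, so they are no reference for duct cells. In the members EPCAM had 7, 4 and 9 UMIs, and KRT7, KRT19 and SPP1 had at most 3 in any library. ANXA4 had a UMI in 154, 225 and 281 members. BICC1, an RNA-binding protein gene of ducts, gave 402, 541 and 434 CPM of the members' sum and had a UMI in 213, 345 and 346 members. CFTR, the chloride channel of duct cells, was unlike it, with 79, 2 and 2 UMIs, and the 79 in Con lay in 5 barcodes, 38 of them in 1. PKHD1, the fibrocystin gene, had 142, 21 and 12 UMIs, with 61 of the 142 in 1 Con barcode. NNAT, an imprinted gene, had 108, 8 and 2 UMIs, with 46 of the 108 in 1 Con barcode. Differences in CFTR, PKHD1 and NNAT between libraries thus rest on a few barcodes of Con.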
